A study of Rattus norvegicus with 6 samples.

Results

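Thra, Thrb and Ttr are 3 of the 17581 genes counted in fetal rat forebrain, chosen by name as the nuclear receptors for thyroid hormone and a protein that carries the hormone. They are listed by Ensembl identifier alone, as ENSRNOG00000009066 (Thra), ENSRNOG00000006649 (Thrb) and ENSRNOG00000016275 (Ttr), and the symbols come from the rule that chose them, since the gene table used here holds no Ensembl identifier. All 3 identifiers were found in the deposited table. RNA was sequenced from 6 forebrains of Wistar rats, an outbred strain, at gestational day 18, each labelled male. The control group (n = 3) came from dams given the vehicle, 0 µg of FM550 per day. The high-dose group (n = 3) came from dams given 1000 µg of FM550 per day, about 3.3 mg per kg body weight at the colony's average weight. FM550 is a commercial flame retardant that combines brominated with organophosphate chemicals. Both groups received a food treat once a day from gestational day 9 to 18, so handling and treat were shared, and tissue was collected 4 hours after the last one. The doses were not adjusted to each dam's weight. The sources used here do not say how many litters each group drew on. The p-values set a group difference against the spread between these 6 forebrains, taken as independent. They would be too small if forebrains of a group shared a litter.

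Thyroid hormone enters brain cells through membrane transporters, is activated or inactivated by deiodinase enzymes, and acts mainly through nuclear receptors that bind DNA, often as a partner of a retinoid X receptor. In the fetal brain it takes part in neuronal migration and differentiation, and for much of gestation it comes from the mother. Thra encodes receptor alpha, the main form of the developing brain, and by alternative splicing also a variant that does not bind the hormone. Thrb encodes receptor beta, which appears later and in fewer places. Ttr encodes transthyretin, which carries thyroxine and retinol-binding protein in blood and cerebrospinal fluid. In the brain it is made chiefly by the choroid plexus, so its reads also serve as a marker of that tissue in a dissection.

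Sequences before an annotated start of each receptor gene are shown because the comparison that follows sets one gene's reads against the other's. They are taken from RefSeq (build GRCr8), run 5′ to 3′ on the gene's own strand over the 250 bases before an annotated start, and have every CG dinucleotide in capitals. The Thra window is chr10:84197891-84198140 on the plus strand, the first of 2 annotated windows. The Thrb window is chr15:10461447-10461696 on the minus strand, the only one in the table, and it lies inside the gene's annotated span, since other RefSeq transcripts begin farther upstream.
Thra: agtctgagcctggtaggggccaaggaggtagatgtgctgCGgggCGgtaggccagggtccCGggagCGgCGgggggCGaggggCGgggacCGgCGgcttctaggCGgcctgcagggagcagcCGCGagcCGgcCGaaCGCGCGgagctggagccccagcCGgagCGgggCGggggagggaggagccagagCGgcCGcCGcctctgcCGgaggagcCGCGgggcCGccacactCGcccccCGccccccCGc
Thrb: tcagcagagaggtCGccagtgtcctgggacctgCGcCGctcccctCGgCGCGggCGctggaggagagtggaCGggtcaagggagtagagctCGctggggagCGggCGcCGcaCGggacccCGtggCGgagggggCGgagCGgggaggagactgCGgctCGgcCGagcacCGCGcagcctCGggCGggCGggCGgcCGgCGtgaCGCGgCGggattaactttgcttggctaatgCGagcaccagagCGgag
Both windows are dense in CG dinucleotides. The Thra window held 30 and the Thrb window 33, where the median of 33469 windows of that length was 5. At least as many as in Thra were found in 5.3% of windows, and at least as many as in Thrb in 3.6%. The second Thra window held 7 and the Ttr window 3. The receptor half-site AGGTCA, or TGACCT on the other strand, was in none of these 4 windows and in 14.1% of all windows. This says only that these letters are not in these windows.

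Library totals ran from 10525138 to 27100394 counts, the lowest and the highest both in the high-dose group. High-dose replicate 2 and control replicate 3 stood apart from their groups: on the first principal component of log2 CPM, with 38.81% of the variance, they scored 35.85 and 8.995, against -23.57 to 0.1973 for the other 4. Each gene's comparison is therefore also given without both. CPM express counts on a common library total, scaled by the TMM method, and are not corrected for transcript length, so they compare libraries for 1 gene and not the abundance of different genes. In bulk tissue, fewer expressing cells and less RNA per cell cannot be told apart.

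Thra RNA was abundant enough for precise counting in each forebrain and its group means were nearly equal. In controls 1, 2 and 3 it stood at 552, 571 and 681 CPM, on 6885, 9855 and 8749 reads. In high-dose replicates 1, 2 and 3 it stood at 543, 738 and 575 CPM, on 14845, 13371 and 6074 reads. The groups overlapped: the lowest and the highest of the 6 values were both high-dose libraries. Mean Thra was 601 ± 69.9 CPM over the controls, against 619 ± 104 CPM over the high-dose group (SD, n = 3 each). On the log2 scale the fitted difference, high dose over control, was 0.04 (SE 0.13), with an adjusted p of 0.999 and an unadjusted p of 0.757 by edgeR's quasi-likelihood test, the adjustment being that of Benjamini and Hochberg over all tested genes. Its 95% interval ran from 0.84-fold to 1.26-fold, so a change within that range could not be told from none.

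The spread of Thra between libraries exceeded counting error. Counting alone gave an error of 4.46 to 7.38 CPM per library, against SDs of 69.9 and 104 CPM. The 2 highest values, 738 and 681 CPM, were those of high-dose replicate 2 and control replicate 3, the libraries that stood apart across all genes. The part that this pattern has in the Thra values was not tested. Without both libraries the remaining 4 ran from 543 to 575 CPM and the fitted log2 difference was -0.0041 (SE 0.06, edgeR adjusted p = 0.992), from 2 libraries per group.

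Thrb stood higher in each high-dose forebrain than in any control, by a margin that did not pass the adjusted threshold of 0.05. Controls 1, 2 and 3 were at 8.09, 8.0 and 7.87 CPM, on 101, 138 and 101 reads. High-dose replicates 1, 2 and 3 were at 13.2, 19.6 and 10.4 CPM, on 361, 355 and 110 reads. The 3 controls were close together and the high-dose libraries were spread 1.88-fold, with no overlap between the groups. Such a separation, in either direction, was found in 11.7% of the 13617 tested genes, and in the upward direction in 5.15%. A separation upward with a fitted change of at least 1.5-fold was found in 1.25%.

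Mean Thrb was 7.99 ± 0.114 CPM over the controls, against 14.4 ± 4.70 CPM over the high-dose group (SD, n = 3 each). The fitted log2 difference was 0.86 (SE 0.22), which is 1.81-fold with a 95% interval of 1.27-fold to 2.59-fold. The unadjusted p was 0.00458 and the adjusted p 0.261 (edgeR quasi-likelihood test). Thrb had the 238th smallest p of all tested genes and the 71st among those with higher values. An unadjusted p under 0.05 was reached by 7.4% of genes in either direction and by 3.07% upward. At the adjusted threshold edgeR called 0.00734% of the tested genes, a single gene that was lower, and 0 genes higher, against 418 higher genes at an unadjusted p under 0.05. DESeq2, which called 58 of 15515 genes higher (0.374%), gave Thrb an adjusted p of 0.0398 at the same log2 difference of 0.86. limma-voom gave it an adjusted p of 0.326.

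**Figure D1:**
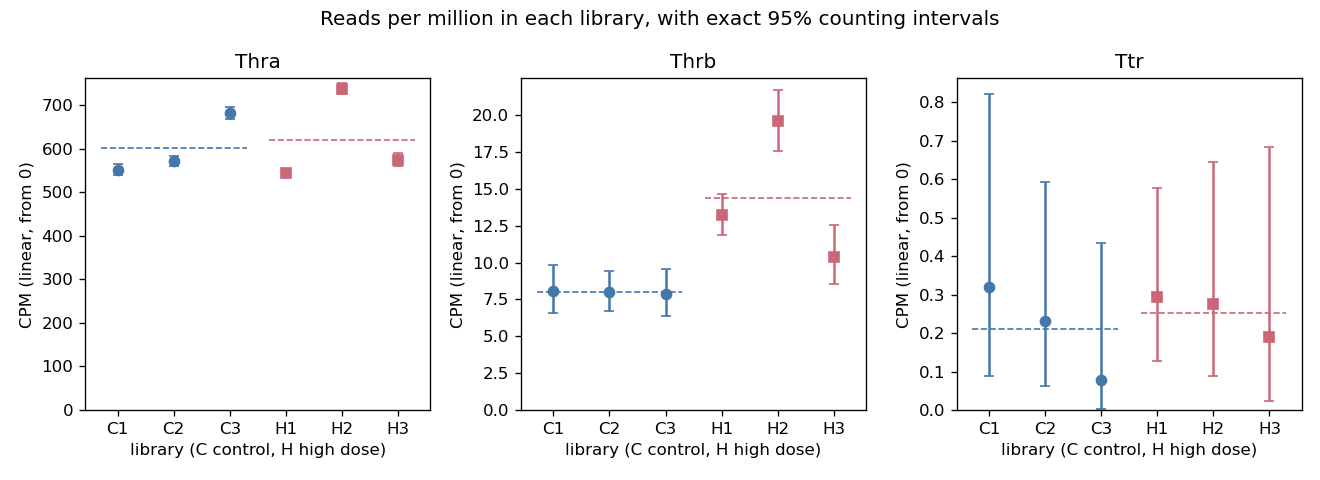
CPM on a linear axis from 0 (y axis, a separate scale per panel) of Thra, Thrb and Ttr in the 3 control (circles) and 3 high-dose (squares) libraries (x axis), with exact 95% Poisson intervals on the count as bars and group means as dashed lines. The control points of Thrb span 7.87 to 8.09 CPM and its high-dose points 10.4 to 19.6 CPM, while the groups overlap for Thra and Ttr.

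The close agreement of the Thrb controls was tighter than counting alone gives. Their SD of 0.114 CPM compares with a counting error of 0.681 to 0.805 CPM in each, so that SD understates how far a further control could fall. The exact 95% counting intervals of the controls together covered 6.41 to 9.83 CPM. High-dose replicate 1 (11.9 to 14.7 CPM) and replicate 2 (17.6 to 21.7 CPM) lay above that range, whereas the interval of high-dose replicate 3, 8.56 to 12.5 CPM, overlapped it. These intervals cover counting error only. A gene-wise estimate of spread, with information shared between genes, gave a biological coefficient of variation of 0.193 for Thrb and 0.118 for Thra. These values describe the spread and are not the ones that the quasi-likelihood test used.

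A single library weighed on the size of the Thrb difference. Without high-dose replicate 2, which held the highest value, the fitted log2 difference was 0.58 (SE 0.16, edgeR unadjusted p = 0.00662, adjusted p = 0.299). Without high-dose replicate 3, which held the lowest high-dose value, it was 1.03 (SE 0.20, unadjusted p = 0.00116, adjusted p = 0.261). With both of the libraries that stood apart left out, it was 0.58 (SE 0.17, adjusted p = 0.083, unadjusted p = 0.00352). With 1 surrogate variable, a column estimated from all genes that was -0.741 for high-dose replicate 2 and -0.357 for control replicate 3, against 0.17 to 0.365 in the others, the log2 difference was 0.72 and the adjusted p 0.0341. That fit called 106 of the 13617 tested genes higher (0.778%), against 0 without the variable. A surrogate variable from counts not scaled to depth had been tried first and gave Thrb an adjusted p of 0.678. It followed depth, from -0.716 in the deepest library to 0.519 in the shallowest, and was replaced by the depth-scaled one after that value had been seen. Thrb kept its direction in each of the 16 alternative fits and passed the threshold in 2 of them. These fits share the same libraries and are not independent of each other. Within the high-dose group, the deepest library (replicate 1) held the middle Thrb value and the shallowest (replicate 3) the lowest, and the part of depth in this spread was not tested.

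**Figure D2:**
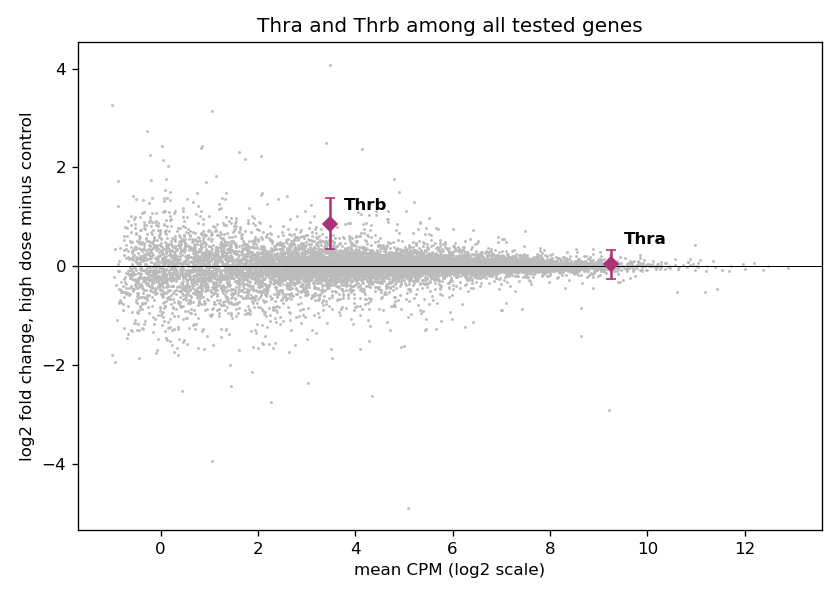
Each of the 13617 tested genes is a grey point at its mean CPM (x axis, log2 scale) and its log2 fold change of high dose over control (y axis), with Thra and Thrb as diamonds and their 95% intervals as bars. Thrb lies at 0.86, with its interval above 0, and Thra at 0.04, with an interval that spans 0.

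The balance of the receptors within each forebrain was followed by the number of Thra reads per Thrb read, a ratio that does not depend on how libraries are scaled. It is a ratio of reads and not of molecules, because the transcripts differ in length. Controls 1, 2 and 3 had 68.2, 71.4 and 86.6 Thra reads per Thrb read. High-dose replicates 1, 2 and 3 had 41.1, 37.7 and 55.2. Each high-dose forebrain was below each control. The mean log2 ratio was 6.23 ± 0.18 in controls and 5.46 ± 0.29 in high-dose forebrain (SD, n = 3 each), a difference of -0.77, or 0.588 times the control ratio. A two-sided exact permutation test gave p = 0.1, the smallest value that 3 libraries against 3 allow, so this design could not have passed 0.05. Since Thra differed little between the groups, the ratio restates the Thrb values on another scale, and is not separate evidence for them.

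**Figure D3:**
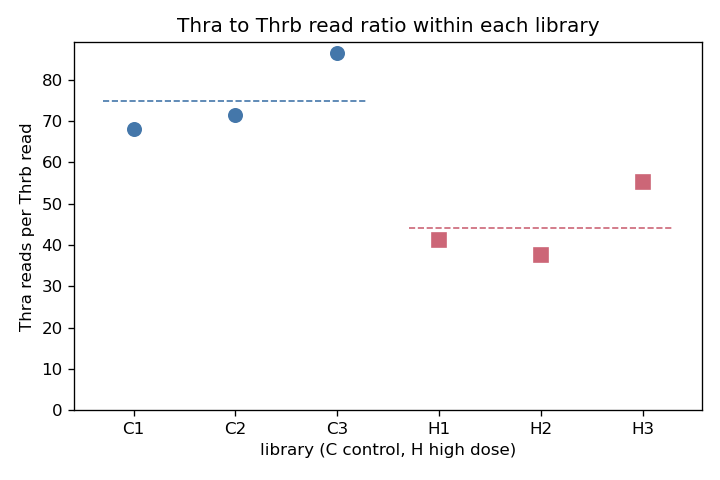
Number of Thra reads per Thrb read (y axis, linear from 0) in each control (circles) and high-dose (squares) library (x axis), with the geometric mean of each group as a dashed line. The 3 controls lie between 68.2 and 86.6 and the 3 high-dose libraries between 37.7 and 55.2.

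The ratio ordered the 6 libraries exactly in reverse of their Thrb CPM, whereas Thra CPM ordered them differently. High-dose replicate 2 held the highest value of both genes, 738 CPM for Thra and 19.6 CPM for Thrb, and the lowest ratio of all 6 libraries. Control replicate 3 held the highest control value of Thra and the lowest of Thrb, and so the highest ratio. With these libraries both left out, the difference in mean log2 ratio was -0.55, from 2 libraries per group (exact permutation p = 0.333, the smallest that size allows).

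Ttr reads were almost absent from each library. Controls 1, 2 and 3 held 4, 4 and 1 reads, or 0.320, 0.232 and 0.0779 CPM. High-dose replicates 1, 2 and 3 held 8, 5 and 2 reads, or 0.293, 0.276 and 0.189 CPM. The groups overlapped, and no exact 95% counting interval reached above 0.821 CPM. Over all 6 libraries there were 24 Ttr reads among 98579542 counts, and 2840 of the 17581 listed genes, 16.2%, had as few or fewer. As a transcript made in large amounts by choroid plexus epithelium, Ttr at this level is a direct measurement that hardly any of its RNA was counted in these forebrain dissections, in controls and high-dose samples alike. The other choroid plexus genes could not be looked up without symbols, so Ttr is the one marker of that tissue reported.

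Because so few reads were counted, Ttr was removed by the filter on low counts and did not enter the main test. Summed over libraries, 9 reads in controls and 15 in high-dose forebrain gave 1.27 times the control level after scaling, with a 95% counting interval of 0.519 to 3.28 times. The interval covers counting error only and includes changes of either direction, so a difference in Ttr was not detectable at this depth. With both libraries that stood apart left out, the log2 ratio of summed counts was -0.0274, against 0.341 over all 6 libraries. Without the filter, edgeR fitted a log2 difference of 0.30 (SE 0.69, adjusted p = 0.996).

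A gene overlapping a receptor gene can share or lose reads where strand is ignored in counting. In the RefSeq table (GRCr8) the 3′ end of Thra overlaps Nr1d1, which encodes the circadian repressor Rev-erb alpha, and its other end overlaps Med24, a subunit of the Mediator complex. Thrb overlaps 6 long noncoding RNA genes and 2 pseudogenes, and Ttr overlaps no other gene. The reads were counted over Ensembl genes on another build, rn6, and whether that annotation holds these overlapping genes was not checked. The library kit marks the strand, but the sources used here do not give the strand setting of the counting, and what these overlaps did to the Thra and Thrb counts was not tested. Counts per gene also do not separate the splice forms of either receptor.

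Among 11011 tested genes with a mean of at least 5 CPM, the profile most like that of Thra over the 6 libraries was that of ENSRNOG00000012364, with Pearson's r = 0.998 of log2 CPM. It ran from 61.2 CPM in high-dose replicate 1 to 119 CPM in high-dose replicate 2, with 99.2 CPM in control replicate 3. In all, 312 of these genes had r above 0.95 with Thra, and 28 with Thrb. The nearest to Thrb was ENSRNOG00000032447 (r = 0.990), at 5.37 to 5.56 CPM in controls and 5.77 to 6.73 CPM in high-dose libraries, a much smaller range. These correlations describe 6 libraries and were not tested. Neither gene has a symbol here.

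**Figure D4:**
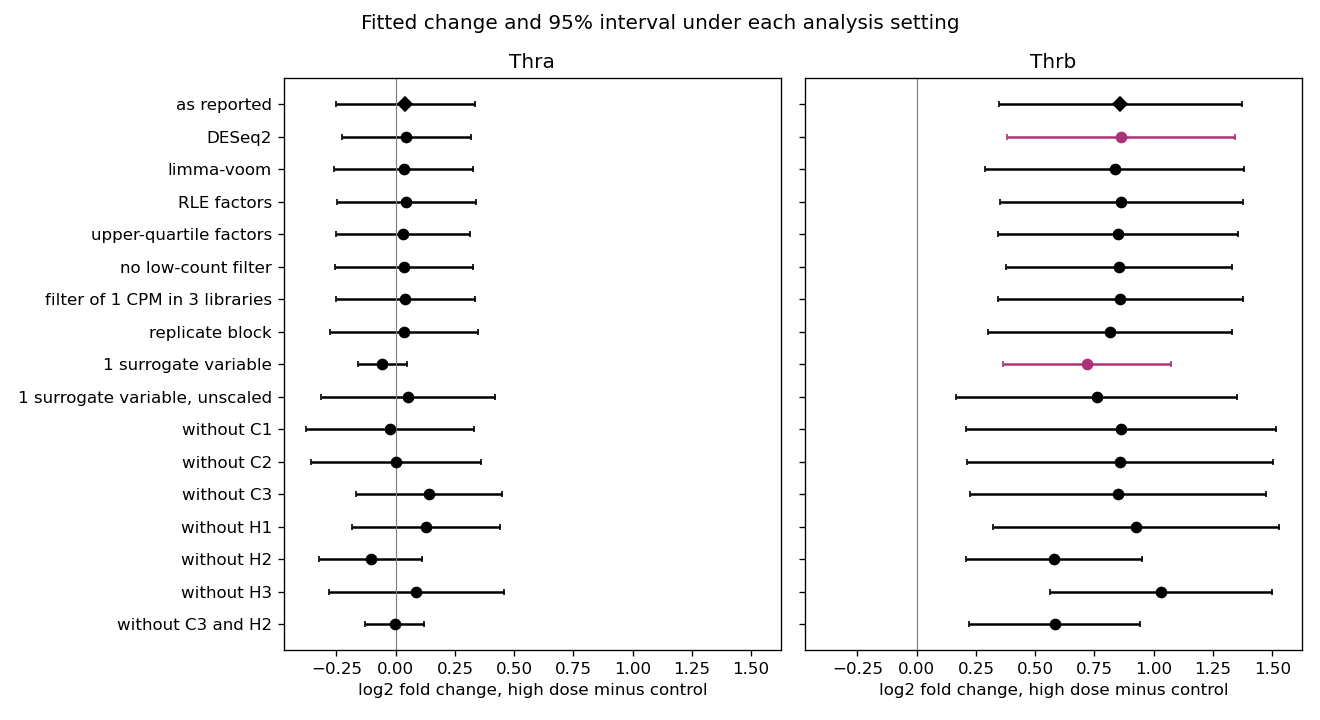
Log2 fold change, high dose minus control (x axis), with its 95% interval, of Thra and Thrb under the reported analysis (diamond) and each alternative (circles, one per row, C and H standing for control and high-dose replicates). Thra lies between -0.11 and 0.14 throughout, and Thrb between 0.58 and 1.03, with an adjusted p under 0.05 (coloured) under DESeq2 and 1 surrogate variable.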

How the data were processed

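Per the labels' protocols, forebrain was microdissected from cryosectioned frozen heads, and poly(A)-selected RNA (integrity number 10 or above) was sequenced from strand-marking libraries as single-end reads of 125 bases. Per the submitters' processing notes, the authors used FastQC, STAR and HTSeq with genome build rn6, with versions, annotation and strand setting not given in the sources used here. Values in the deposited file are raw counts of reads for each Ensembl gene, not normalized by the authors. Columns were tied to samples by library name and groups taken from titles.

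Groups were compared in R 4.3.3 with edgeR 4.0.16, by a robust quasi-likelihood fit with TMM scaling and no term but group. The filter filterByExpr (minimum count 10, total 15) kept 13617 genes with 99.92% of counts, 2 of the 3 members among them. Adjustment of p-values was by Benjamini-Hochberg across those genes. Standard errors are the log2 fold change divided by the square root of F. Totals of 10525138 to 27100394 counts set the counting precision, given as exact 95% Poisson intervals, which cover counting error only. Ttr failed the filter, so counts summed per group with an exact conditional interval replaced its planned test. Alternatives used DESeq2 1.42.0, voom from limma 3.58.1, scaling by RLE or upper quartile, other filters, a replicate block, 1 surrogate variable (sva 3.50.0, on depth-scaled counts) and left-out libraries.

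The members and gene lists were chosen with earlier results of these data known. The rule for named genes took the 3 members, genes of 6 thyroid hormone pathway lists and the most alike profiles. The gene table (GRCr8, 47357 genes) pairs 0 Ensembl identifiers with symbols, so those lists, and 11 lists of cell type markers that would have checked the forebrain label, were not run.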

Additional observations from a re-analysis of the deposited data

How the results depend on the processing

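For Thra, the log2 fold change kept its sign in 12 of 16 alternatives, with adjusted p from 0.792 to 1.00. It was -0.0562 with 1 surrogate variable, -0.0041 without control replicate 3 and high-dose replicate 2 together, and 0.03 with the replicate block (adjusted p = 1.00). Leaving out single libraries gave -0.1053 (without high-dose replicate 2) to 0.14, and -0.0233 without control replicate 1. None passed the threshold. Thrb kept its direction in 16 of 16 alternatives and passed the threshold in 2: DESeq2 gave 0.862 (adjusted p = 0.0398) and 1 surrogate variable 0.718 (adjusted p = 0.0341). Its adjusted p over all 16 ran from 0.0341 to 0.802 and its log2 fold change from 0.58 to 1.03, the range over single left-out libraries too. The surrogate variable tried first, from counts not scaled to depth, gave Thrb an adjusted p of 0.678 and was replaced after that value had been seen. With the replicate block Thrb was at 0.82 (adjusted p = 0.474). The deviations of same-numbered libraries correlated at 0.227, -0.275 and -0.21, and 2 of the 6 had their best match in the library of the same number, so the numbers were not taken as pairs. With the block edgeR called 0 genes and 786 had an unadjusted p below 0.05. Without it these numbers were 1 and 1008.

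The difference in mean log2 ratio of Thra to Thrb reads was -0.930 to -0.654 with single libraries left out and -0.853 from summed counts. The log2 ratio of summed Ttr counts was 0.341 as reported and -0.0067 to 0.689 with single libraries left out, each inside its counting interval. Fits by limma-voom, a 1 CPM filter, a block or a surrogate variable gave no Ttr value, since their filters remove it. The number of called genes of all tested was 1 in the reported fit, 198 by DESeq2, 26 with no filter, 277 with 1 surrogate variable, 24, 3 and 10 without control replicate 3, high-dose replicate 1 and high-dose replicate 2, 412 without control replicate 3 and high-dose replicate 2 together, and 0 by edgeR with controls 1 or 2 or with the third high-dose library left out (757, 633 and 1001 genes then had an unadjusted p below 0.05). The cause was not tested. Ttr rests on 24 reads in all.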
